A study of Mus musculus with 24 samples.

Results

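The extracellular matrix genes described here are 44 of the 18171 genes in the expression table of a mouse liver study. They were listed by name, with earlier results of these data known. The list holds 5 fibrillar collagen genes, 6 other collagens, 9 basement membrane genes, 7 glycoprotein and elastic fibre genes and 3 small proteoglycans. It also holds 4 lysyl oxidases, 5 collagen hydroxylases, 3 metalloproteinase inhibitors and 2 metalloproteinases. All 44 were found in the table. Of these, 31 had an FPKM (fragment counts scaled by transcript length and library size) of at least 1 in at least 6 libraries and were tested, and 13 were too low.

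The study compared livers of C57BL/6 mice with overexpression of L2d13 (L2 delta13 in the series design) with livers of wild-type (WT) mice by RNA sequencing, with 12 libraries for each genotype. The sample names carry a digit, 2 or 4, in both genotypes, which gave 4 groups of 6 libraries: L2d13 set 2, WT set 2, L2d13 set 4 and WT set 4. The labels do not say what the digit stands for, so an age, a treatment time or a batch cannot be told apart in it. They also give no promoter, cell type of expression, line, age or sex for the overexpressing mice, nor whether each library came from its own animal, so the p-values measure the spread between libraries only.

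Liver matrix is sparse in health. Fibrillar collagens give tensile strength, while type IV collagen, laminins, nidogens and perlecan form the basement membrane type of matrix, which in the liver lies around bile ducts and vessels and as a thin, incomplete layer along the sinusoids. Hepatic stellate cells, portal fibroblasts and endothelial cells are the main sources of most of these transcripts, and hepatocytes make fibronectin and type XVIII collagen. Newly made collagen chains are hydroxylated on proline by P4H enzymes and on lysine by PLOD enzymes inside the cell, and are crosslinked outside it by lysyl oxidases.

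Loxl2, a lysyl oxidase, and Gm21451, an annotated gene that shares 84.3% of its 50-base transcript windows with Loxl2, were read as a check of the labels. Gm21451 was listed at 40.63 to 266.18 FPKM in the 12 L2d13 libraries and at 0.03 to 1.27 in the 12 WT libraries. Loxl2 ranged from 0.83 to 2.26 FPKM in the L2d13 libraries and from 0.36 to 1.26 in the WT libraries, and reads of these genes may have been split between them. Hepatocyte markers were abundant in every library, with Alb between 11018.51 and 39136.82 FPKM. One library stood apart before any comparison: L2d13 set 2 replicate 3 had the lowest Alb, against at least 23035.24 in the others, and the highest sum of cholangiocyte markers (141.80 FPKM). It also had the highest value of all 24 libraries for 38 of the 44 matrix genes, among them 27 of the 31 tested. WT set 2 replicate 6 had the next highest cholangiocyte sum, 85.72 FPKM, against at most 45.97 in the remaining 22 libraries. Results are given with and without replicate 3 where it decides them.

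Promoter sequence was drawn from RefSeq windows (build GRCm38.p6), which were present for 29 of the 44 genes. The first stretch is shown because Col4a1 and Col4a2, which were both higher in L2d13, start head to head. The 30 bases at chr8:11312801-11312830, plus strand, hold both starts. The capitals mark the 22 bases from the Col4a2 start at 11312805 to the Col4a1 start at 11312826. Col4a2 is read to the right and Col4a1 to the left, so the marked bases lie downstream of both starts. They are an overlap of the first transcribed bases of these genes, not sequence upstream of either.
Col4a1 and Col4a2 starts: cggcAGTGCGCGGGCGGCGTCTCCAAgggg
The next pair is shown because P4ha1 and P4ha2 encode alternative catalytic subunits of the same collagen hydroxylase, and P4ha1 was the tested member that fell while P4ha2 was not called in any contrast. Each is the 250 bases before the start, on the plus strand, at chr10:59323046-59323295 for P4ha1 and at chr11:54100674-54100923 for P4ha2. The capitals mark ACGTG, on either strand, which is a form of the core letters of the hypoxia response element. The form GCGTG also occurs in both stretches and was neither marked nor counted.
P4ha1: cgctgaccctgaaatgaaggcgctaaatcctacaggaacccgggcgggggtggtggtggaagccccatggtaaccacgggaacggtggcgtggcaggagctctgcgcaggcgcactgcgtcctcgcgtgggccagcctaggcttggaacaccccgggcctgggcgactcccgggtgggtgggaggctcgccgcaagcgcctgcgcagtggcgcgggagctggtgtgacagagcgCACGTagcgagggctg
P4ha2: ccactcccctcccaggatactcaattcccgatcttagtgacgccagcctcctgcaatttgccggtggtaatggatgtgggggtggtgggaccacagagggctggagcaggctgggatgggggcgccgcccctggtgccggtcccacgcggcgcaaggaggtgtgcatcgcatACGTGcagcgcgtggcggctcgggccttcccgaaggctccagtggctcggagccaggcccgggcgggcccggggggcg

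Both hydroxylase genes hold the ACGTG letters once, 16 to 12 bases before the start of P4ha1 on the minus strand and 78 to 74 bases before that of P4ha2 on the plus strand. Over all genes, 16.6% of 32851 windows hold these letters on either strand, and 7 of the 29 matrix genes do. The GC box letters GGGCGG occurred in the windows of 20 of the 29, against 32.7% of all windows. CCAAT occurred in 10 of the 29 against 33.8%, and TATAAA in 3 against 12.4%. The upstream stretches of P4ha1 and P4ha2 were 69.6% and 70.0% GC, against a median of 52.4% over all windows. These matches describe letters only.

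Levels of the 44 genes, compared in FPKM, which is scaled by length, spanned several orders of magnitude. Col18a1, whose C-terminal fragment is endostatin, had the highest median over the 24 libraries, 163.3 FPKM, followed by Fn1 (fibronectin) at 123.9. Next came the proteoglycans Dcn (decorin) at 56.41 and Bgn (biglycan) at 25.71, the lysyl hydroxylase Plod1 at 19.65, and Mmp14, a membrane-bound metalloproteinase, at 14.41. Type I collagen was low, at 0.855 for Col1a1 and 1.845 for Col1a2 (medians of 24), below the basement membrane chain Col4a1 at 3.69. Timp1 (0.06) and Lox (0.085), the founding lysyl oxidase, had the lowest medians.

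**Figure D1:**
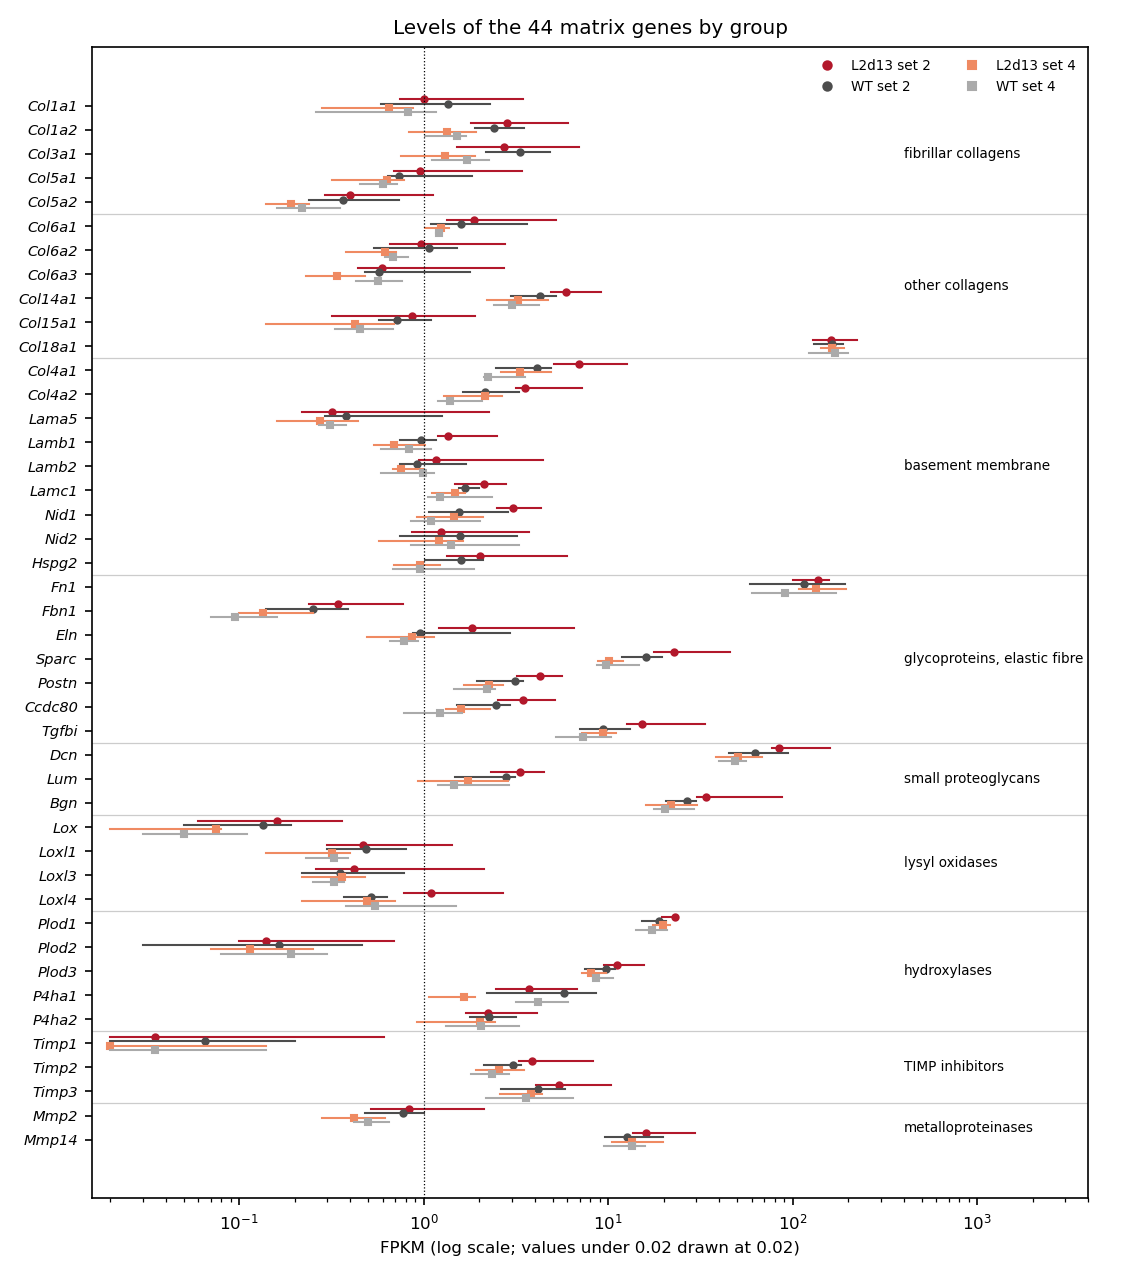
Levels of the 44 matrix genes on a log axis of FPKM. Points are medians and lines run from the lowest to the highest of the 6 libraries of each group; the dotted line marks an FPKM of 1. Col18a1 and Fn1 lie farthest right and Timp1 and Lox farthest left, and L2d13 set 2 has the longest lines to the right for most genes.

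Between genotypes over both sets, 6 of the 31 tested genes were higher in L2d13 and 1 was lower. Those higher were the type IV collagen chains Col4a1 and Col4a2, their binding partner Nid1 (nidogen), the secreted matrix proteins Tgfbi and Ccdc80, and Plod1. P4ha1 was lower. Calls rest on limma with Benjamini-Hochberg adjustment over 10532 genes at an adjusted p under 0.05. Of all genes tested 30.8% were called in this contrast, 25.9% higher and 4.86% lower, beside 7 of 31 (22.6%) matrix genes. That count depended on single libraries: it was 13 without WT set 4 replicate 7, where 32.4% of all genes were called, 12 without L2d13 set 4 replicate 7 (30.3%) and 11 without WT set 4 replicate 8 (36.5%). With every library rescaled to 1 common FPKM total it was also 13, or 41.9% of the 31, against 42.2% of all genes. The median log2 difference was 0.20 for the 31 genes and 0.12 for all genes. Scaling by median-of-ratios size factors moved the median of all genes to 0.00 and the calls of all genes from 2730 higher and 512 lower to 1215 and 1164. Among the matrix genes it left 4 higher (Col4a1, Col4a2, Tgfbi and Ccdc80) and P4ha1 lower. A further fit used the 16 libraries of like fragment value, which is the FPKM that 1 fragment is worth. It called 5 of the 31 genes (16.1%), all higher, against 19.7% of all genes. Of the 7 named above 3 were among them: Col4a1, Col4a2 and Tgfbi.

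Among basement membrane genes, Col4a1 was at 5.05, 6.97 and 12.63 FPKM (lowest, median and highest of 6 libraries) in L2d13 set 2 and at 2.45, 4.12 and 4.92 in WT set 2. In set 4 it was at 2.61, 3.32 and 4.90 in L2d13 and at 2.13, 2.23 and 3.53 in WT. All L2d13 libraries of set 2 thus lay above all WT libraries of that set, while the groups of set 4 overlapped. The log2 difference over both sets was 0.55 ± 0.13 (SE; limma, adjusted p = 0.00212), and 11 of 12 L2d13 libraries exceeded the WT mean of their set, the measure used below.

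Col4a2, the chain that joins Col4a1 in the same trimer, was at 3.18, 3.54 and 7.24 FPKM in L2d13 set 2 and at 1.63, 2.16 and 3.27 in WT set 2. Set 4 gave 1.28, 2.16 and 2.64 in L2d13 and 1.19, 1.38 and 2.06 in WT. The groups of both sets overlapped, in set 2 only by the highest WT library. Over both sets the log2 difference was 0.46 ± 0.11 (limma, adjusted p = 0.00276), with 11 of 12 libraries above the WT mean. Without L2d13 set 2 replicate 3 the differences were 0.47 for Col4a1 and 0.38 for Col4a2, both still called.

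Nid1, which links laminin and type IV collagen networks, was at 2.49, 3.05 and 4.33 FPKM in L2d13 set 2 and at 1.07, 1.56 and 2.87 in WT set 2. In set 4 the values were 0.92, 1.46 and 2.10 against 0.85, 1.10 and 2.01. The higher level thus stood in set 2, and in set 4 the ranges nearly coincided. Its difference over both sets was 0.37 ± 0.12 (limma, adjusted p = 0.0229; 10 of 12 libraries above the WT mean). That call was lost with median-of-ratios scaling (0.27, limma adjusted p = 0.0807). It was also lost without L2d13 set 2 replicate 3 and WT set 2 replicate 6 together (0.28, limma adjusted p = 0.054).

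The other 5 tested basement membrane genes were not called over both sets. They lay between -0.22 for Nid2, a second nidogen, and 0.12 for Lamb1, a laminin chain. Lamc1 was at 0.09, Lamb2 at 0.09 and Hspg2 (perlecan) at 0.11. Lama5, the laminin alpha chain on the list, fell below the filter with medians of 0.275 to 0.38 FPKM in the 4 groups.

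Of the glycoprotein and elastic fibre genes, Tgfbi was at 12.70, 15.19 and 33.26 FPKM in L2d13 set 2 and at 7.07, 9.36 and 13.10 in WT set 2. Set 4 gave 7.17, 9.36 and 11.04 in L2d13 against 5.21, 7.27 and 10.41 in WT. In set 2 a single WT library reached into the L2d13 range, and in set 4 most libraries overlapped. Over both sets Tgfbi differed by 0.55 ± 0.14 (limma, adjusted p = 0.00467; 11 of 12 libraries above the WT mean), and by 0.45 without L2d13 set 2 replicate 3, still called.

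Ccdc80 was at 2.52, 3.44 and 5.13 FPKM in L2d13 set 2 and at 1.51, 2.47 and 2.94 in WT set 2. In set 4 it was at 1.32, 1.60 and 2.29 against 0.78, 1.22 and 1.61. The groups overlapped in both sets, yet all 12 L2d13 libraries exceeded the mean of the WT libraries of their set. The difference was 0.38 ± 0.10 (limma, adjusted p = 0.00681), and it missed the threshold in the 16 libraries of like fragment value (0.33, limma adjusted p = 0.0671).

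The other 4 tested genes of that role had positive differences and were not called over both sets: Sparc, a collagen-binding glycoprotein, at 0.33, Fn1 at 0.30, Postn (periostin) at 0.25 and Eln (elastin) at 0.25, the sign of Fn1 turning in the 16 libraries of like fragment value. All 3 small proteoglycans likewise had positive differences without a call, Dcn and Bgn at 0.34 each and Lum (lumican) at 0.18. Fbn1 (fibrillin) was below the filter, with group medians of 0.095 to 0.345 FPKM.

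Fibrillar and other collagens were not called between genotypes over both sets. Col1a1 was at 0.74, 1.01 and 3.45 FPKM in L2d13 set 2 and at 0.59, 1.36 and 2.29 in WT set 2, so the ranges overlapped and the WT median was the higher. Col1a1, Col1a2 and Col3a1 differed by -0.03, 0.11 and -0.12. Col6a1, Col6a2 and Col18a1 differed by 0.10, -0.01 and 0.01, and Col14a1, a fibril-associated collagen, by 0.28 (limma, adjusted p = 0.0729). Several of these small differences change sign with the scaling, so none is read as a direction. Col5a1, Col5a2, Col6a3 and Col15a1 were below the filter, with group medians of 0.19 to 0.95 FPKM.

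**Figure D2:**
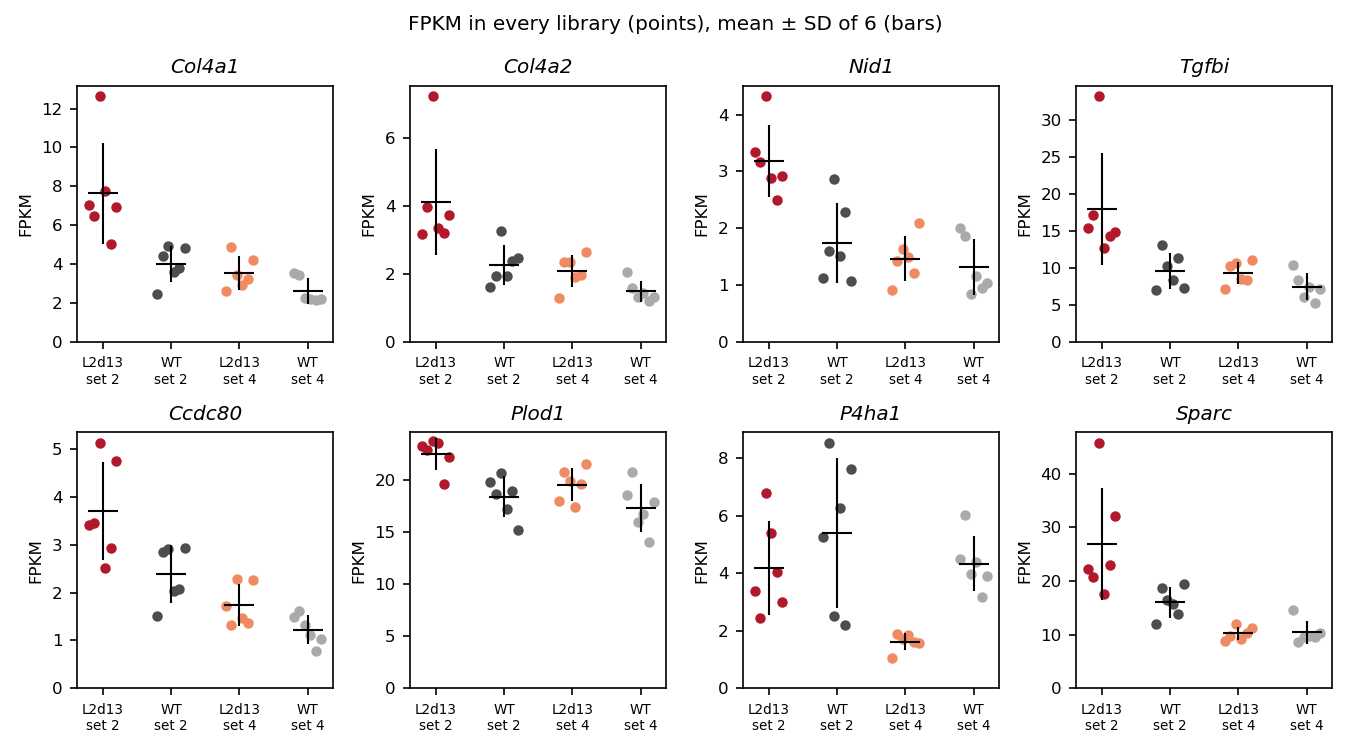
FPKM of 8 matrix genes in every library (points), by group, with the mean and SD of 6 libraries (black); each axis starts at 0. The panels show the 7 genes called over both sets and Sparc; P4ha1 of L2d13 set 4 lies below every WT library of set 4, and L2d13 set 2 is the highest group in the other 7 panels.

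Among the hydroxylases 1 gene rose and 1 fell. Plod1 was at 19.63, 23.11 and 23.76 FPKM in L2d13 set 2 and at 15.23, 18.85 and 20.68 in WT set 2. Set 4 gave 17.45, 19.81 and 21.56 against 14.07, 17.36 and 20.85. Every L2d13 library exceeded the WT mean of its set, although the ranges overlapped. The difference was small, 0.23 ± 0.07 (limma, adjusted p = 0.0117), and fell to 0.09 with median-of-ratios scaling, where it was not called (limma, adjusted p = 0.307).

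P4ha1 moved the other way. It was at 2.45, 3.72 and 6.79 FPKM in L2d13 set 2 and at 2.19, 5.77 and 8.53 in WT set 2, ranges that overlapped widely. In set 4 it was at 1.07, 1.66 and 1.89 in L2d13 and at 3.18, 4.18 and 6.04 in WT, so every L2d13 library lay below every WT library. The log2 difference over both sets was -0.63 ± 0.18 (limma, adjusted p = 0.0093), with 2 of 12 L2d13 libraries above the WT mean. Within set 4 it was -1.02 ± 0.23 (limma, adjusted p = 0.00558) and within set 2 -0.24 ± 0.23 (limma, adjusted p = 0.512). The difference between these 2 values, -0.77 ± 0.33, was not called (limma, adjusted p = 0.608). In the 16 libraries of like fragment value the set 4 difference was -1.17 and missed the threshold (limma, adjusted p = 0.0753). In that subset replicates 7 and 8 were the only WT libraries of set 4, and 2.81% of all genes were called in set 4.

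P4ha2, the alternative subunit, differed by -0.05 over both sets, and Plod3, another lysyl hydroxylase, by 0.08, neither called. Plod2, the lysyl hydroxylase of telopeptides, was low, with group medians of 0.115 to 0.19 FPKM. Timp2 and Timp3, tissue inhibitors of metalloproteinases, differed by 0.28 and 0.20 and Mmp14 by 0.21, none called. Timp1 was listed at 0 in at least 1 library of each group and did not exceed 0.61 FPKM, and Mmp2, a type IV collagenase, had group medians of 0.42 to 0.835.

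The lysyl oxidases other than Loxl2 were all below the filter. Loxl1 and Loxl3 had group medians between 0.32 and 0.485 FPKM. Loxl4 was at 0.78, 1.10 and 2.69 in L2d13 set 2 and at 0.37, 0.52 and 0.63 in WT set 2, without overlap, but at 0.22, 0.50 and 0.70 in L2d13 set 4 and at 0.38, 0.55 and 1.49 in WT set 4. Without the filter on low values, Loxl4 was called in set 2 (0.65, limma adjusted p = 0.0135) and not in set 4 (-0.19, limma adjusted p = 0.572), and the difference between the sets was not called (-0.85, limma adjusted p = 0.307). All 44 genes enter that fit. It called the same 7 over both sets, against 17.6% of 18171 genes, and 11 in set 2, against 8.13%.

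Within set 2 alone, 12 of the 31 genes were higher in L2d13 and 0 lower, against 15.1% of all genes called and 13.0% called higher. They were Col4a1 (0.77), Col4a2 (0.62), Nid1 (0.63) and Lamb1 (0.34) of the basement membrane, and Tgfbi (0.80), Sparc (0.66), Postn (0.46) and Ccdc80 (0.46) among the glycoproteins. The others were the proteoglycans Dcn (0.59) and Bgn (0.59), Col14a1 (0.53) and Plod1 (0.28). Lamb1 and Eln passed the filter only through L2d13 set 2: Lamb1 reached an FPKM of 1 in all 6 libraries of that group and in 4 of the other 18, and Eln in 6 and 5. Their tests that involve this group are therefore a description. Among the other 29 genes 11 were called, all higher. Col6a2, 1 of these 29, reached an FPKM of 1 in 3 libraries of L2d13 set 2, in 4 of WT set 2 and in 0 of either group of set 4. Its tests between the sets are thus a description too, and it was called in no contrast. The 31 genes had a median log2 difference of 0.34, against 0.16 for all genes, and 29 of 31 were positive. None of the 3 tested fibrillar collagens was called: Col1a2 was at 0.26 (limma, adjusted p = 0.324), Col1a1 at 0.04 and Col3a1 at 0.01.

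Sparc gives the pattern library by library. It was at 17.64, 22.66 and 45.80 FPKM in L2d13 set 2, at 11.92, 16.09 and 19.50 in WT set 2, at 8.85, 10.04 and 11.97 in L2d13 set 4 and at 8.70, 9.71 and 14.60 in WT set 4. In set 4 the genotypes coincided, and in set 2 the L2d13 median was above every WT library. Its difference in set 2 was 0.66 ± 0.17 (limma, adjusted p = 0.012), and 0.50 without L2d13 set 2 replicate 3, still called.

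How many genes were called in set 2 depended on single libraries and on the scaling. Without L2d13 set 2 replicate 3 the 12 became 6 (Col4a1, Col4a2, Nid1, Postn, Sparc and Tgfbi), with 1477 of all 10532 genes called. Without WT set 2 replicate 1 they became 5, against 10.3% of all genes, and without WT set 2 replicate 4 they became 6, against 9.23%. With median-of-ratios scaling 5 of 31 (16.1%) were called, against 7.24% of all genes. Col4a1, Col4a2, Nid1, Sparc and Tgfbi were called in set 2 under that scaling and with each of the 24 libraries left out in turn. Bgn lost its call without replicate 3 (0.37), as did Dcn (0.45), Col14a1 (0.45), Lamb1 (0.24), Ccdc80 (0.38) and Plod1 (0.27).

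Within set 4, 1 of the 31 genes was called, P4ha1, against 13.3% of all genes. The median log2 difference was 0.02 for the matrix genes and 0.08 for all genes, with 18 positive and 13 negative. Col4a1 (0.33), Col4a2 (0.30), Tgfbi (0.30) and Ccdc80 (0.30) were positive there too without passing the test. The change of the genotype difference from set 2 to set 4 was tested for each gene and 0 of 31 were called by limma, against 0.152% of all genes. An unadjusted p under 0.05 (limma) was reached by 7 of the 31, against 747 of all 10532 genes. The smallest adjusted p was 0.406, for Lamb1 (-0.43), one of the pair that passed the filter through L2d13 set 2. A change of the genotype difference between the sets is therefore not shown for any single matrix gene. In 29 of 31 the value of L2d13 minus WT was lower in set 4 than in set 2, which for P4ha1 meant a larger fall in set 4.

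**Figure D3:**
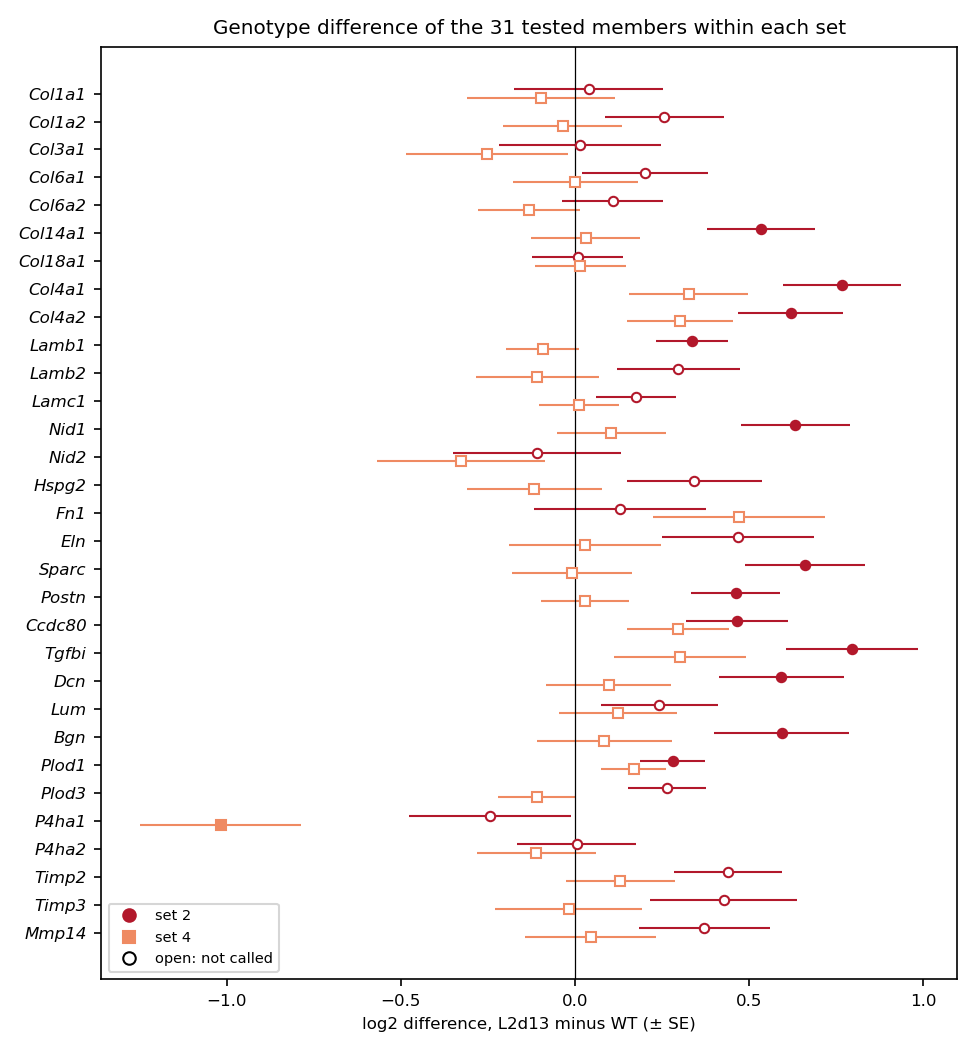
Log2 difference of L2d13 minus WT with its SE for the 31 tested genes, in set 2 (circles) and set 4 (squares); filled points were called by limma at an adjusted p under 0.05. In set 2, 12 genes are filled on the right; in set 4 the filled point is P4ha1 at -1.02, on the left.

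Between the sets, matrix genes were lower in set 4 in L2d13 livers: 19 of 31 were called lower and 0 higher, against 6.06% of all genes called and 5.51% called lower. The median log2 difference was -0.59, against -0.15 for all genes. They comprised 2 of 3 tested fibrillar collagens, 1 of 4 other collagens, 5 of 8 basement membrane genes, 5 of 6 glycoproteins and elastic fibre genes, 3 of 3 proteoglycans, 2 of 4 hydroxylases and 1 of 2 inhibitors. Sparc fell by 1.25 ± 0.17 on the log2 scale (limma, adjusted p = 0.000276), Postn by 0.74 (limma, adjusted p = 0.00189) and Col4a1 by 0.90 (limma, adjusted p = 0.00413). Without overlap between the sets were 14 of the 31, a count that was not made over all genes and so has no share beside it. Leaving aside Lamb1 and Eln, which passed the filter through L2d13 set 2, 17 of 29 were called lower. Col6a2, which passed through the libraries of set 2 alone, is among these 29 and was not called.

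Fibrillar collagen was called in this contrast. Col1a2 was at 1.80, 2.81 and 6.03 FPKM in L2d13 set 2 and at 0.83, 1.34 and 1.91 in L2d13 set 4, with a narrow overlap, and fell by 0.81 ± 0.17 (limma, adjusted p = 0.00766). Col3a1 fell by 0.92 ± 0.23 (limma, adjusted p = 0.0227), and that call was lost without L2d13 set 2 replicate 3. Col1a1 differed by -0.58 and was not called (limma, adjusted p = 0.106). Without replicate 3, 13 of the 19 were still called, against 3.11% of all genes, and the 6 lost were Col3a1, Eln, Lum, Plod3, P4ha1 and Timp2. Leaving out L2d13 set 4 replicate 7 instead gave 12 calls, against 2.79%. With median-of-ratios scaling 14 were called (45.2%), against 2.86%. Without the filter, 19 of 44 were called, against 3.51% of 18171 genes, among them Loxl4 (-0.70), Fbn1 (-0.26) and Lox (-0.15).

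In WT livers 0 of the 31 were called between the sets by limma, against 0.190% of all genes. An unadjusted p under 0.05 (limma) was reached by 10 of the 31, against 852 of all 10532 genes. Of the 31 differences 30 were negative, with a median of -0.29 against -0.08 for all genes. Among the 31, Col6a2 and Col1a1 would not have passed the filter without WT set 2, with 3 and 5 of the other libraries at an FPKM of 1. Ccdc80 (-0.60, limma adjusted p = 0.116) and Sparc (-0.58, limma adjusted p = 0.242) had the smallest p. Col1a2 was at 1.89, 2.41 and 3.48 FPKM in WT set 2 and at 1.01, 1.51 and 1.69 in WT set 4, without overlap, yet was not called (-0.52, limma adjusted p = 0.325). The sign was thus the same in both genotypes, and the test of the difference between genotypes is the one given above, with 0 calls.

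**Figure D4:**
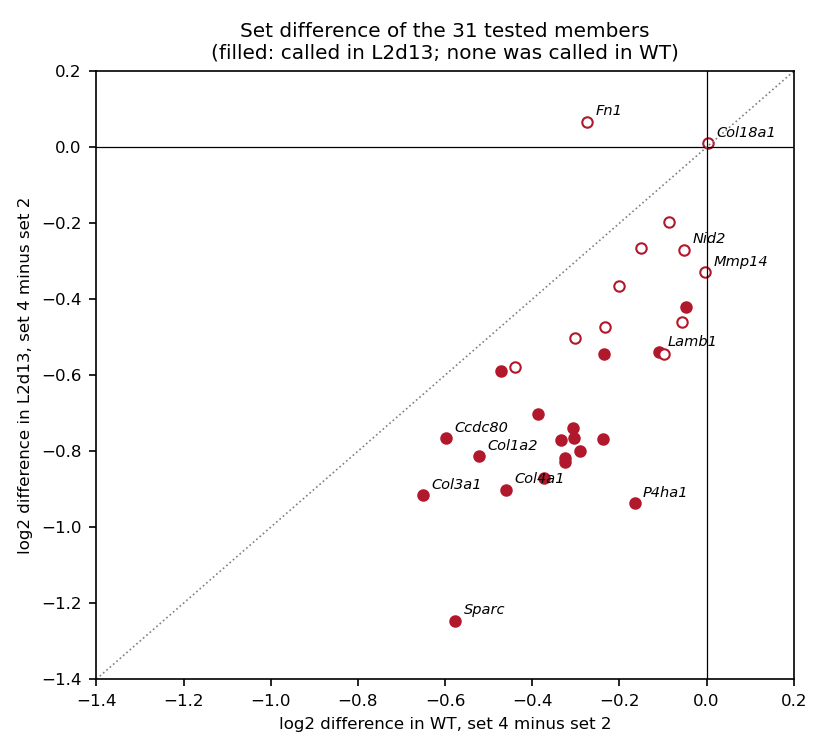
Log2 difference of set 4 minus set 2 for the 31 tested genes, in WT livers (horizontal) and in L2d13 livers (vertical), from different libraries; filled points were called in L2d13 and the dotted line marks equal values. Nearly all points lie at negative values on both axes and below the line; Sparc is lowest at -1.25.

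Markers of cells that make matrix were counted in the same contrasts. Of 13 tested stellate cell markers, 3 were higher in L2d13 in set 2 (Lrat 0.75, Colec11 0.61 and Rgs5 0.54), or 23.1% against 13.0% of all genes. In L2d13, 8 of the 13 (61.5%) were lower in set 4 than in set 2, against 5.51%. Of 16 tested sinusoidal endothelial markers these counts were 4 (Lyve1 1.34, Oit3 1.17, Gpr182 1.09 and Pecam1 0.69), or 25%, and 7, or 43.8%. Between genotypes in set 4, 0 of either list were called, against 13.3% of all genes, with median differences of -0.008 and 0.22. Between the sets of WT 0 of either were called, against 0.190%, while 12 of 13 and 16 of 16 differences were negative. The counts in set 2 and between the sets of L2d13 fell under the following scalings. With median-of-ratios scaling 2 stellate and 3 endothelial markers were higher in set 2, against 3.54% of all genes, and 3 of each were lower in set 4 of L2d13, against 1.86%. With quantile normalization the counts were 2 and 3 in set 2, against 3.92%, and 3 and 4 between the sets, against 1.98%. The summed endothelial markers lay between 202.57 and 500.53 FPKM in L2d13 set 2 (median 225.33), 93.95 and 222.82 in WT set 2 (159.85), 87.76 and 177.07 in L2d13 set 4 (126.04) and 65.89 and 181.18 in WT set 4 (100.45). The summed stellate markers lay between 139.15 and 366.16 (159.3), 107.93 and 182.69 (123.1), 85.72 and 122.79 (103.0) and 89.38 and 130.66 (114.6) in the same order of groups. In both sums the sets of L2d13 did not overlap, with or without replicate 3, as with Sparc and Col4a1. In bulk tissue, more cells of a type and more RNA per cell cannot be told apart, and the part of these cells in the matrix gene differences was not tested.

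Of 11 tested Kupffer cell markers, those of liver macrophages, 3 (27.3%) were higher over both sets, against 25.9% of all genes. With median-of-ratios scaling or quantile normalization 0 were called. In each, 3 of the 11 had an unadjusted p under 0.05 (limma), against 3847 and 3852 of all 10532 genes. In the deposited scaling 0 markers were called in set 2 (limma, 0 at an unadjusted p under 0.05, against 3191 of all genes). Between the sets of L2d13 0 were called (limma, 7 at an unadjusted p under 0.05, against 2460 of all genes). All 11 differences between the sets of L2d13 were negative, with a median of -0.69, against -0.63 for the stellate and -0.87 for the endothelial markers. In set 4 all 11 were positive between genotypes, with a median of 0.67. By limma 0 were called and 7 had an unadjusted p under 0.05, against 3146 of all genes. Between the sets of WT all 11 were negative, with a median of -1.06. Against 852 of all genes, 11 of these markers had an unadjusted p under 0.05 (limma), and 0 were called. Their sum was between 168.64 and 385.28 FPKM in L2d13 set 2, 136.74 and 266.35 in WT set 2, 78.24 and 277.64 in L2d13 set 4 and 50.45 and 181.30 in WT set 4. The part of these cells in the matrix gene differences was not tested. Portal fibroblast markers, 3 of 8 tested, were called in neither of these 2 contrasts, and their sum did not exceed 19.79 FPKM, the value of L2d13 set 2 replicate 3. Of 4 tested smooth muscle and myofibroblast markers 1 (25%) was called in set 2, lower, against 2.13% of all genes called lower. In set 4 and over both sets 1 of the 4 was likewise called lower, against 2.97% and 4.86% of all genes. Between the sets of L2d13 0 of the 4 were called, against 6.06%. Mesothelial markers summed to at most 1.5 FPKM, with Upk3b at 0 in 19 of 24 libraries, and the adipocyte genes Adipoq and Plin1 were at 0 in 12 and 17. The adipose list as a whole summed to at most 25.50 FPKM, with medians of 0.36 in L2d13 set 2, 2.025 in WT set 2, 0.91 in L2d13 set 4 and 9.285 in WT set 4. Cfd (adipsin), its 1 tested gene, gave most of that sum and differed by -1.81 in set 4 (limma, adjusted p = 0.0647) and by -1.16 over both sets (limma, adjusted p = 0.0613), neither called. Cholangiocyte sums without L2d13 set 2 replicate 3 and WT set 2 replicate 6 stayed between 16.09 and 45.97 FPKM.

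**Figure D5:**
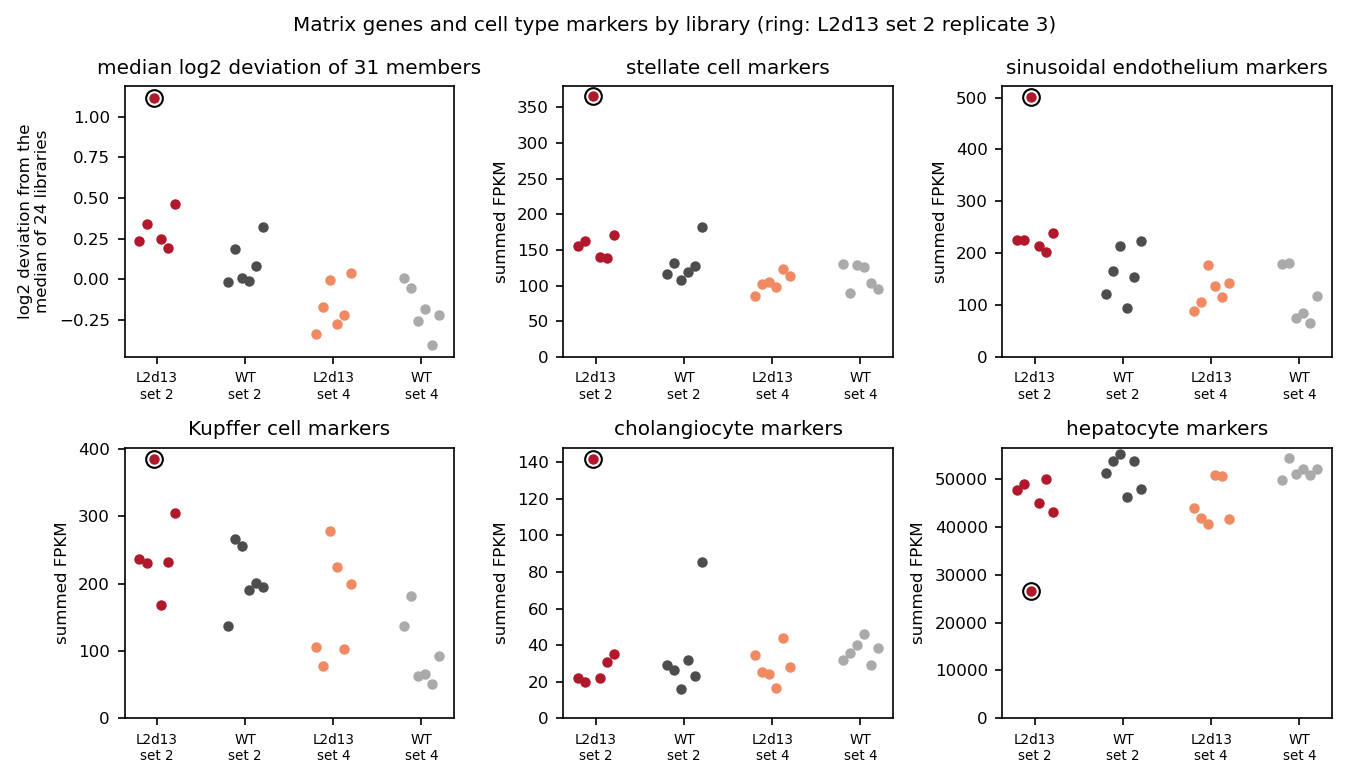
The first panel gives each library's median log2 deviation of the 31 tested genes from their median over 24 libraries; the other panels give summed FPKM of cell type markers, from 0. The ringed library, L2d13 set 2 replicate 3, is at 1.11 in the first panel, highest in 4 marker panels and lowest for hepatocyte markers.

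Genes around the matrix list were counted in the same fit over both sets. Of 14 tested genes of collagen folding and maturation 4 (28.6%) rose and 0 fell, against 25.9% of all genes called higher: Colgalt1, a collagen galactosyltransferase (0.70 ± 0.11, limma adjusted p = 5.6e-05), P3h1, a prolyl 3-hydroxylase (0.41), P4hb, the partner subunit of P4ha1 and P4ha2 (0.43), and Mia3, a factor for procollagen export (0.25). The median of the 14 differences was 0.05, against 0.12 for all genes. P4hb thus was higher, at 510.7 against 381.1 FPKM (means of 12), where P4ha1 was lower, at 2.90 against 4.87. The calls of P4hb and Mia3 were lost with median-of-ratios scaling, and that of Mia3 held in 13 of 24 fits that left out 1 library.

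Of 13 tested matrix receptors 2 rose, Itgb3 (0.42) and Sdc1 (0.40), and 2 fell, Sdc4 (-0.66) and Sdc2 (-0.21), in all 30.8%, the share of all genes, the syndecans being heparan sulfate proteoglycans of the cell surface. Of 16 tested genes of TGF-beta and PDGF signalling 4 (25%) rose and 0 fell, against 25.9% of all genes: Smad6, an inhibitory SMAD (0.61), Tgfbr2 (0.50), Pdgfra (0.41) and Pdgfa (0.41). Of 7 tested further proteases and regulators 1 (14.3%, against 30.8% of all genes called) rose, Adam10 (0.29), and Adam9 (0.32), Mmp15 (-0.26) and Mmp19 (0.18) were not called. With median-of-ratios scaling the calls of Sdc1, Tgfbr2, Pdgfa and Adam10 were lost, and Mmp15 was called lower (-0.38). The call of Sdc1 held in 7 of 24 fits that left out 1 library, and those of the other 8 called genes of these lists in all 24.

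Among 15 tested further matrix genes 2 rose and 2 fell (26.7%, against 30.8% of all genes called), and both falls were larger than any difference over both sets among the 31. Col27a1, a fibrillar collagen outside the list of 44, was lower by 1.52 on the log2 scale (-1.52 ± 0.29; limma, adjusted p = 0.000482), at 3.88 against 13.97 FPKM (means of 12), with 0 of 12 L2d13 libraries above the WT mean. Col5a3 was at -1.16 ± 0.29 (limma, adjusted p = 0.0035), 7.38 against 17.1 FPKM. Lamb3, a laminin chain, rose by 0.77 and Prelp, a leucine-rich proteoglycan, by 0.69. All 4 calls held with each of the 24 libraries left out in turn.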

How the data were processed

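Liver RNA of 24 libraries was sequenced on the BGISEQ-500, per the labels. Values were taken in FPKM as the authors deposited them. The tools listed in the submitters' processing notes are HISAT, RSEM and Bowtie2 (no version given), with the build GRCm38.p5. Read totals are not in the table, so depth is unknown. Each of the 24 columns matched 1 sample by name, and 18040 of 18171 gene identifiers matched a RefSeq symbol.

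Log2(FPKM + 1) was modelled in limma 3.58.1 (R 4.3.3; lmFit and eBayes with a variance trend, two-sided tests). The 10532 genes that reached 1 FPKM in 6 or more libraries were kept. The genotype over both sets came from a fit with a term for set, and the other contrasts from 1 mean per group. P-values were adjusted by Benjamini-Hochberg over all tested genes and called under 0.05. Log2 differences include the pseudocount of 1 and understate changes of low genes. Tables and figures used Python 3.11.15. The procedure was tested on simulated data.

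The genes, lists and tests were chosen with earlier results of these data known. Genes called over both sets were given in full, others by role with the smallest p as examples; from each further list the 4 of smallest p were named. Sparc was given in full, and Loxl4 tested without the filter, after their values were seen. Other settings were a pseudocount of 0.1, filters, scalings, libraries of like fragment value, libraries left out, a replicate block and an untrended prior.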

Additional observations from a re-analysis of the deposited data

Results flagged for a closer look

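Dixon's criterion for an outlying value is met by about 1 in 20 groups of independent, normally distributed values. FPKM was used unlogged and the genes share libraries, so that rate need not hold here. By this criterion the highest or lowest library lay far from the others in 24 of 124 combinations of a tested matrix gene and a group of 6. L2d13 set 2 replicate 3 was the library in 16 of them, with Col6a1 at 5.18 FPKM, Col6a2 at 2.74, Col4a1 at 12.63, Col4a2 at 7.24, Lamb1 at 2.48, Lamb2 at 4.43, Hspg2 at 5.95 and Eln at 6.52. The same library had Tgfbi at 33.26 FPKM, Dcn at 159.18, Bgn at 87.92, Plod3 at 15.63, P4ha2 at 4.13, Timp2 at 8.23, Timp3 at 10.33 and Mmp14 at 29.38. All 16 were high values, from basement membrane genes to inhibitors.

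The other 8 were spread over 6 libraries. WT set 2 replicate 6 was high for Col6a1 (3.65 FPKM) and Eln (2.92), and WT set 4 replicate 7 for Sparc (14.60) and Bgn (29.28). Lum was low in WT set 2 replicate 1 (1.48) and high in WT set 4 replicate 8 (2.88), Postn was low in WT set 4 replicate 11 (1.45), and Plod1 was low in L2d13 set 2 replicate 5 (19.63).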

How the results depend on the processing

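Counts of the 31 tested genes called moved as follows, with the share of all genes called in brackets. Over both sets 7 (30.8%) became 13 (42.2%) with every library rescaled to 1 common FPKM total, and 7 to 13 when 1 library was left out. It was 12 (30.3%) without L2d13 set 4 replicate 7, 13 (32.4%) without WT set 4 replicate 7 and 11 (36.5%) without WT set 4 replicate 8. In set 2 the 12 (15.1%) became 7 of 13 tested (17.7%) at an FPKM of at least 5. They became 5 (7.24%) with median-of-ratios scaling and 5 (7.85%) with quantile normalization. With 1 library left out they were 5 to 12, the 5 without WT set 2 replicate 1 (10.3%). In set 4 the 1 call (13.3%) became 0 (2.81%) in the 16 libraries of like fragment value and stayed 1 with each library left out (7.91% to 23.1%). Between the sets the 19 in L2d13 (6.06%) became 8 of 13 tested (5.17%) at an FPKM of at least 5. With 1 library left out they ran from 12 (2.79%, without L2d13 set 4 replicate 7) to 21 (8.38%, without WT set 2 replicate 6). In WT the 0 (0.190%) became 1 without WT set 2 replicate 1 (0.228%) or WT set 4 replicate 8 (0.779%). An alternative chosen after seeing the data left out the 2 libraries that stand apart. It called 7 over both sets (35.4%), 8 in set 2 (14.3%), 1 in set 4 (24.9%) and 18 between the sets of L2d13 (5.24%).

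Same-numbered libraries did not deviate together (correlations -0.60 to 0.26 over 12 pairs, 4 above 0.1, and 1 library correlated best with its own number). The labels give no link between them beyond the number, and these correlations cannot exclude a weak one. With the number as a replicate block 7 were called in set 2 and 6 over both sets.

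Differences over both sets that changed sign belonged to genes never called there. With every library rescaled to 1 common FPKM total, Col1a1 was at 0.0303, Col6a2 at 0.0367 and P4ha2 at 0.0196. With quantile normalization Col1a2 was at -0.0039, Col6a1 at -0.0069, Col18a1 at -0.0234, Lamb2 at -0.0037, Lamc1 at -0.0159 and Plod3 at -0.0302. With median-of-ratios scaling Col18a1 was at -0.1312 and Plod3 at -0.0534. In the libraries of like fragment value Col1a1 was at 0.0434, Col18a1 at -0.0886, Lamc1 at -0.0216, Hspg2 at -0.0685 and Fn1 at -0.0064. Without the 2 libraries that stand apart Col18a1 was at -0.0270. With 1 library left out, Col1a1 ran from -0.1168 to 0.0152, Col6a2 from -0.0927 to 0.0189, Col18a1 from -0.0318 to 0.0426, Lamb2 from -0.0240 to 0.1246 and P4ha2 from -0.1120 to 0.0032. The cause of these changes was not tested. Depth is unknown, and the 13 genes below the filter were compared only in the fits without it.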
